A study of Rattus norvegicus with 14 samples.

Results

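The genes described here are 9 members of the machinery that carries peroxisome proliferator-activated receptor (PPAR) signals to chromatin. They are the receptors Pparg, Ppara and Ppard, their dimer partners Rxra and Rxrb, the coactivators Ppargc1a and Ppargc1b, the corepressor Ncor1 and the Mediator subunit Med1. They were chosen by name, and all 9 have a row among the 16816 genes of the count table. All 9 passed the filter on low counts in every comparison.

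PPARs are nuclear receptors that bind DNA as heterodimers with a retinoid X receptor (RXR) and respond to fatty acids and related lipids. Without an agonist the dimer can hold corepressors such as NCOR1, which bring in histone deacetylase activity. Agonist binding favours coactivators, among them the PGC-1 proteins encoded by Ppargc1a and Ppargc1b, and MED1, the subunit through which Mediator contacts liganded nuclear receptors. PPARG drives fat cell differentiation. In a subset of thyroid carcinomas a translocation joins most of PAX8, a thyroid lineage factor, to PPARG, and the product is the PAX8-PPARG fusion protein (PPFP).

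RNA-seq was performed in PCCL3, a rat thyroid follicular cell line kept in medium with thyrotropin, insulin, transferrin, hydrocortisone and serum. The line called PPFP cells had been transfected with a myc-tagged human fusion, and its control, EV cells, with the vector alone; both transfections were stable. Each line received 1 μM pioglitazone, a PPARG agonist of the thiazolidinedione class, or its DMSO vehicle for 16 hours, which gave 4 groups of 3 libraries from independent experiments. The number of clones behind each line is not given in the sources used here, so the transgene cannot be told apart from other differences between the lines. The fusion is a human cDNA, and rat Pparg and Pax8 counts include its reads only as far as these aligned to the rat genome.

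The 12 libraries held 23724703 to 35240176 counts each. All 9 thyroid markers examined were present, with a summed level of 10117 to 14463 CPM per library, where CPM is a library's counts scaled to its size. Of 5 adipocyte markers, Lep and Retn were at 0 in all 12 libraries and Fabp4 was at 0 in all libraries without pioglitazone. The summed adipocyte marker level was at most 3.01 CPM in any EV library, between 12.4 and 12.8 CPM in the PPFP libraries with vehicle and between 20.4 and 26.6 CPM in those with pioglitazone. Its part in the results was not tested. Cidec, itself a PPAR target, made up most of this rise (means of 0.06, 8.06 and 22.0 CPM in EV vehicle, PPFP vehicle and PPFP pioglitazone libraries), while Adipoq was at 4.54 CPM with vehicle and 2.40 CPM with pioglitazone in PPFP cells. Of 5 macrophage markers 4 had a row, and their sum was 1.38 CPM at most. The fibroblast markers Dcn and Lum were at 0 in all 12 libraries, while the sum of all 5 fibroblast markers was 20.4 to 34.5 CPM.

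Promoters are shown for the 3 members whose own gene changed in at least 1 comparison and which have an entry among the RefSeq promoter sequences of build GRCr8. Each runs from 250 bases before the annotated start to 50 after it, on the coding strand, and 7 of the 9 members matched an entry. Capitals mark the cyclic AMP response element TGACGTCA, a palindrome that reads the same on both strands. Rxra lies at chr3:31387642-31387941 (+), Ppargc1a at chr14:63634058-63634357 (+) and Ncor1 at chr10:47640301-47640600 (-).
Rxra: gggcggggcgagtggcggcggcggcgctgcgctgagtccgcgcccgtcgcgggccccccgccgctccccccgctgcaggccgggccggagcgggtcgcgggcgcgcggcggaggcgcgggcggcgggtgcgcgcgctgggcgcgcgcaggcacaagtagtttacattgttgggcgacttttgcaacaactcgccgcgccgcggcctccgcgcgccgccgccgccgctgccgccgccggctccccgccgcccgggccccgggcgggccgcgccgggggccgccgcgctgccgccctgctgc
Ppargc1a: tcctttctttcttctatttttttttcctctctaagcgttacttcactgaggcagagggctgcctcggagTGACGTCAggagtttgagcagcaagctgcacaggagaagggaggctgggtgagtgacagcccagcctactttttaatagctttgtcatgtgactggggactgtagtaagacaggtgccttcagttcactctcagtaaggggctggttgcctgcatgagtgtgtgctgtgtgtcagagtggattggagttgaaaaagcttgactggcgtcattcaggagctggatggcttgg
Ncor1: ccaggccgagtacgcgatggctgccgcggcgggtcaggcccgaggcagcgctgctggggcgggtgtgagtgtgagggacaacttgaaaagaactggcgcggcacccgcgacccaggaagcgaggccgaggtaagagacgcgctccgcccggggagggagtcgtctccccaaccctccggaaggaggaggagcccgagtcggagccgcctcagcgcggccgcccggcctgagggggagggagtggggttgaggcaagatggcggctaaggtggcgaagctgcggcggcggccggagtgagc
The Ppargc1a promoter held the cyclic AMP response element at positions -181 to -174 relative to the start, and 1.83% of the 33469 rat promoters in the same set held it. The nuclear receptor hexamer AGGTCA was searched on both strands and occurred in 16.2% of promoters. Its direct repeat with 1 base between the 2 copies, the form to which PPAR-RXR dimers bind, occurred in 0.0538% of promoters. Neither was found in the windows of the 7 matched members. GC content was 50.3% in the Ppargc1a window, 84.7% in that of Rxra and 72% in that of Ncor1.

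The first comparison asked how PPFP cells differ from EV cells without pioglitazone. Pparg and Ppard were higher in PPFP cells, and Rxra and Ppargc1a were lower. The other 5 members did not pass the test. These 4 of 9 changed members stand beside 45.2% of all 10264 genes tested (22% higher and 23.1% lower). Pparg is among the 4, and its row holds transgene reads, so its call was set by the design. Of the 4, Pparg, Rxra and Ppargc1a changed by more than 2-fold, as did 14.6% of all genes. Without EV replicate 2 the Ppargc1a log2 fold change was -0.84, which is under 2-fold. The median difference over the members was -0.29 on the log2 scale and over all tested genes 0.00. Here and below, a gene passed the test when its quasi-likelihood p from edgeR, adjusted by the Benjamini-Hochberg method over all tested genes, was under 0.05.

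**Figure D1:**
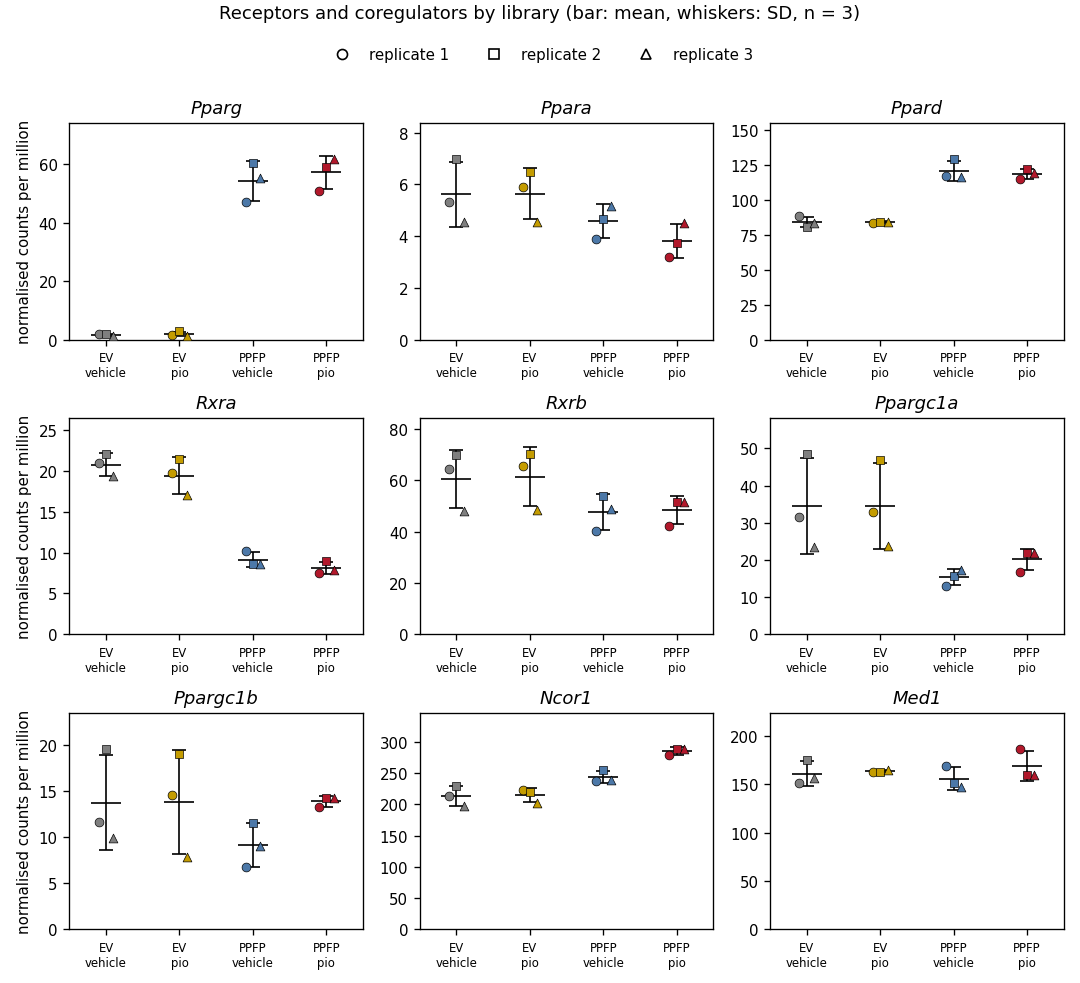
Normalised read counts in CPM (linear axis from 0) of the 9 members in each library, by group, with the mean as a bar and the SD as whiskers (n = 3). Pparg and Ppard of PPFP cells lie above all EV libraries, and Rxra and Ppargc1a lie below all of them.

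Pparg, the receptor that the fusion carries, had 53, 54 and 36 reads in the EV libraries with vehicle and 1274, 1618 and 1288 in the PPFP libraries with vehicle. With pioglitazone it had 56, 88 and 38 reads in EV cells and 1342, 1583 and 1848 in PPFP cells. The groups of the 2 lines were far apart at either treatment. Pparg was 33.8-fold higher in PPFP cells without pioglitazone (log2 fold change 5.08 ± 0.19 SE, edgeR adjusted p = 3.6e-06) and 30.6-fold higher with it (4.94 ± 0.26 SE, edgeR adjusted p = 1.3e-05). Because the row holds transgene and endogenous reads together, this difference checks the labels and says nothing of the endogenous gene. Pax8, the other fusion partner, ranged from 692 to 798 CPM in the EV and from 680 to 712 CPM in the PPFP libraries with vehicle (log2 fold change -0.08 ± 0.09 SE, edgeR adjusted p = 0.47). With pioglitazone Pax8 was lower in PPFP cells, with 541 to 554 CPM against 684 to 795 CPM in EV cells (-0.39 ± 0.09 SE, edgeR adjusted p = 0.0070).

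Ppard encodes the PPAR subtype that is expressed in most tissues. Its levels were 88.1, 80.7 and 83.7 CPM in EV cells with vehicle and 117, 129 and 117 CPM in PPFP cells with vehicle. With pioglitazone they were 83.3, 84.0 and 84.5 CPM in EV cells and 115, 122 and 119 CPM in PPFP cells. The lowest PPFP library lay above the highest EV library. Ppard was 1.44-fold higher in PPFP cells without pioglitazone (log2 fold change 0.52 ± 0.08 SE, edgeR adjusted p = 0.0014) and 1.43-fold higher with it (0.52 ± 0.07 SE, edgeR adjusted p = 0.00062).

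Ppara, known for the control of fatty acid oxidation in liver, went the other way in its values. It had 5.34, 6.98 and 4.53 CPM in EV cells with vehicle and 3.90, 4.66 and 5.18 CPM in PPFP cells with vehicle, which overlap (log2 fold change -0.29 with a 95% interval from -0.78 to 0.19, edgeR adjusted p = 0.28). With pioglitazone it had 5.91, 6.49 and 4.54 CPM in EV cells and 3.18, 3.73 and 4.51 CPM in PPFP cells. The lowest EV library and the highest PPFP library nearly met, at 4.54 and 4.51 CPM. The log2 fold change with pioglitazone was -0.55 ± 0.20 SE, and the edgeR adjusted p of 0.053 missed the threshold. It passed in 9 of 14 alternative settings, over which the edgeR or DESeq2 adjusted p ran from 0.021 to 0.13. It passed without EV replicate 3 (-0.70, adjusted p = 0.021) or PPFP replicate 3 (-0.72, adjusted p = 0.043). It did not without replicate 1 or 2 of either line, where the value was -0.43 to -0.56 and the adjusted p 0.12 to 0.13.

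Rxra encodes RXR alpha, a shared partner of PPARs, thyroid hormone receptors and retinoic acid receptors. It had 20.9, 22.0 and 19.3 CPM in EV cells with vehicle and 10.2, 8.58 and 8.61 CPM in PPFP cells with vehicle. With pioglitazone the values were 19.7, 21.5 and 17.0 CPM in EV cells and 7.50, 8.95 and 7.88 CPM in PPFP cells. No PPFP library came near the lowest EV library. Rxra was 2.27-fold lower in PPFP cells without pioglitazone (log2 fold change -1.18 ± 0.12 SE, edgeR adjusted p = 0.00021) and 2.36-fold lower with it (-1.24 ± 0.13 SE, edgeR adjusted p = 0.00024).

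Rxrb, the second RXR among the members, had 64.1, 69.6 and 48.0 CPM in EV cells with vehicle and 40.1, 53.7 and 48.9 CPM in PPFP cells with vehicle. The groups overlapped, since EV replicate 3 lay among the PPFP libraries. The log2 fold change was -0.35 (95% interval -0.73 to 0.03, edgeR adjusted p = 0.12) without pioglitazone and -0.32 (95% interval -0.68 to 0.04, edgeR adjusted p = 0.11) with it. Leaving out EV replicate 3 brought Rxrb past the threshold in both, at -0.49 (adjusted p = 0.023) and -0.49 (adjusted p = 0.012). The ratio of Rxrb to Rxra reads within a library needs no normalization between libraries. It was 2.49 to 3.33 in the EV libraries and 3.95 to 6.55 in the PPFP libraries, without overlap.

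Ppargc1a encodes PGC-1 alpha, a coactivator known for mitochondrial gene programs. It had 31.6, 48.5 and 23.5 CPM in EV cells with vehicle and 13.0, 15.8 and 17.4 CPM in PPFP cells with vehicle. Every PPFP library was below every EV library, although EV libraries differed among themselves with a coefficient of variation of 37.0%. Ppargc1a was 2.24-fold lower in PPFP cells (log2 fold change -1.17 ± 0.26 SE, edgeR adjusted p = 0.0082). Ppargc1b, its close relative PGC-1 beta, had 11.7, 19.6 and 9.93 CPM in EV cells and 6.77, 11.5 and 9.04 CPM in PPFP cells with vehicle, which overlap. Its log2 fold change was -0.59 (95% interval -1.27 to 0.09, edgeR adjusted p = 0.14).

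Ncor1 had 214, 229 and 197 CPM in EV cells with vehicle and 238, 255 and 239 CPM in PPFP cells with vehicle. The groups did not overlap, but the log2 fold change of 0.20 ± 0.09 SE missed the threshold (edgeR adjusted p = 0.097). In all, 5 of 9 members showed no overlap of groups in this comparison, and 56.5% of all tested genes did. Pparg with its transgene reads is among the 5. Med1 ranged from 152 to 175 CPM in the EV and from 147 to 169 CPM in the PPFP libraries with vehicle. Its log2 fold change was -0.05 with a 95% interval from -0.27 to 0.17.

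With pioglitazone present in both lines, Pparg, Ppard and Ncor1 were higher in PPFP cells and Rxra and Ppargc1a were lower. These 5 of 9 changed members, Pparg with its transgene reads among them, stand beside 52.7% of 10291 genes tested (26.3% higher and 26.4% lower). Pparg and Rxra passed 2-fold, as did 19.7% of all genes. The 2 comparisons between the lines use different libraries throughout, but the same 2 cell lines.

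**Figure D2:**
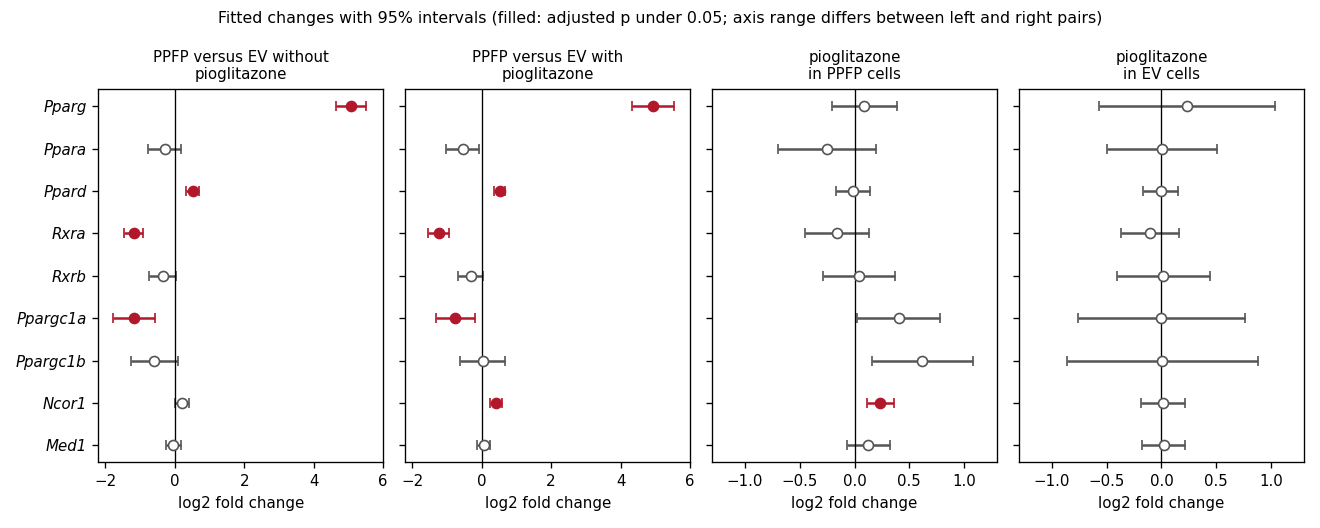
Fitted log2 fold changes (horizontal axis) of the 9 members in 4 comparisons, with 95% intervals, filled where the edgeR adjusted p was under 0.05. The axis is wider for the comparisons of the 2 lines, where Pparg lies near 5, than for those of pioglitazone, where only Ncor1 in PPFP cells is filled.

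Ncor1 was 1.34-fold higher in PPFP cells with pioglitazone (log2 fold change 0.42 ± 0.07 SE, edgeR adjusted p = 0.0023). Its levels were 223, 219 and 203 CPM in EV cells and 278, 289 and 289 CPM in PPFP cells. Ppargc1a was 1.69-fold lower (log2 fold change -0.76 ± 0.24 SE, edgeR adjusted p = 0.032), with 33.0, 46.9 and 23.8 CPM in EV cells and 16.8, 21.8 and 21.9 CPM in PPFP cells. The highest PPFP library lay just below the lowest EV library. This call was lost without EV replicate 1 (-0.81, adjusted p = 0.071), EV replicate 2 (-0.49, adjusted p = 0.067), PPFP replicate 1 (-0.63, adjusted p = 0.094) or PPFP replicate 2 (-0.84, adjusted p = 0.051).

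Ppargc1b and Med1 did not pass the test with pioglitazone. Ppargc1b had 14.6, 19.0 and 7.86 CPM in EV cells and 13.2, 14.2 and 14.2 CPM in PPFP cells. All PPFP libraries lay inside the range of the EV libraries (log2 fold change 0.03, 95% interval -0.63 to 0.68). Med1 ranged from 163 to 165 CPM in the EV and from 160 to 187 CPM in the PPFP libraries (log2 fold change 0.06, 95% interval -0.13 to 0.25).

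The third comparison asked what pioglitazone does in PPFP cells. Of the 9 members Ncor1 rose, and the other 8 did not pass the test. This share of 1 in 9 stands beside 14.8% of 10064 genes tested (7.63% higher and 7.13% lower, and 2.42% changed by more than 2-fold). Ncor1 went from 238, 255 and 239 CPM to 278, 289 and 289 CPM, a 1.18-fold rise (log2 fold change 0.24 ± 0.05 SE, edgeR adjusted p = 0.030). The groups did not overlap, as for 34.4% of all tested genes. The call was lost in 5 of the 6 fits that left out a library, with adjusted p of 0.063, 0.056 and 0.13 without vehicle replicates 1, 2 and 3 and of 0.14 and 0.14 without pioglitazone replicates 2 and 3.

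Both coactivators had higher values with pioglitazone in each replicate number. Ppargc1b had 6.77, 11.5 and 9.04 CPM with vehicle and 13.2, 14.2 and 14.2 CPM with pioglitazone. The groups did not overlap, and the log2 fold change was 0.62 ± 0.19 SE (edgeR adjusted p = 0.083). Ppargc1a was higher with pioglitazone in every replicate number, by 0.37, 0.46 and 0.33 on the log2 scale, but the groups overlapped (0.40 ± 0.16 SE, edgeR adjusted p = 0.15). Libraries of the same replicate number varied together within a cell line, although in PPFP cells replicates 2 and 3 also varied with each other (r = 0.35 and 0.54 between numbers, beside 0.46 and 0.43 within them). When edgeR was given the replicate number as a blocking factor, Ppargc1a (log2 fold change 0.40, adjusted p = 2.3e-05), Ppargc1b (0.63, adjusted p = 6.1e-06), Ncor1 (0.24, adjusted p = 3.2e-06) and Med1 (0.13, adjusted p = 0.0048) all passed. These 4 of 9 members stand beside 51.6% of all genes that passed in that paired fit.

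**Figure D3:**
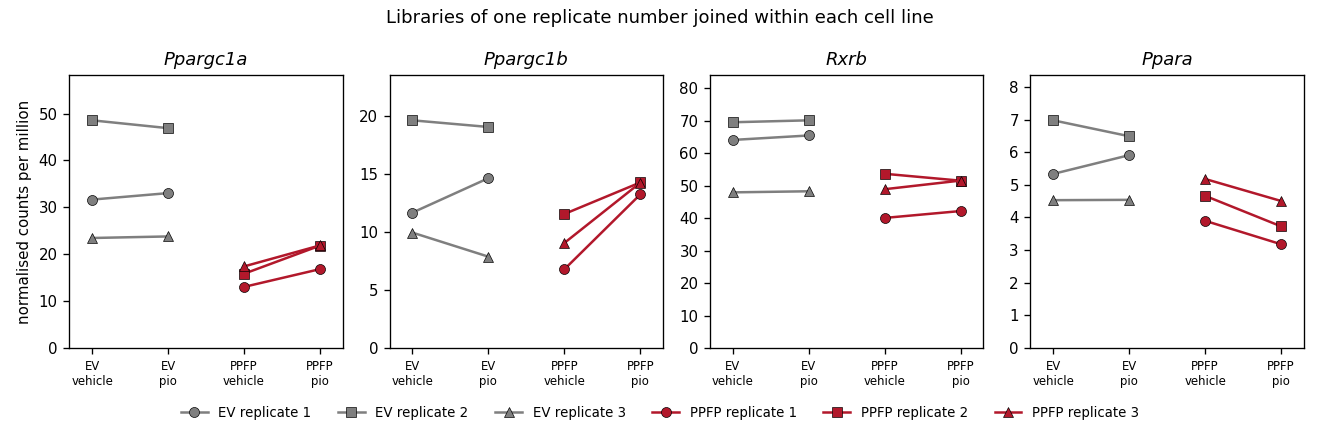
Normalised read counts in CPM (linear axis from 0) of Ppargc1a, Ppargc1b, Rxrb and Ppara, with the vehicle and pioglitazone libraries of each replicate number joined by a line. The lines of Ppargc1a and Ppargc1b rise for all 3 replicate numbers in PPFP cells, and the EV lines keep their order with replicate 2 at the top.

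The receptors gave no call for pioglitazone in PPFP cells with or without the block. Pparg, transgene included, went from a mean of 54.1 to 57.2 CPM (log2 fold change 0.09, 95% interval -0.20 to 0.39). Ppard had a log2 fold change of -0.01 (95% interval -0.17 to 0.14). Rxra had -0.16 (95% interval -0.45 to 0.13) and Rxrb 0.04 (95% interval -0.29 to 0.37). Ppara was lower with pioglitazone in every replicate number, with differences of -0.29, -0.32 and -0.20 on the log2 scale, and its edgeR adjusted p was 0.44, or 0.076 with the block. Pax8 fell from 680 to 712 CPM to 541 to 554 CPM (log2 fold change -0.33 ± 0.04 SE, edgeR adjusted p = 0.0048).

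In EV cells, no member passed the test for pioglitazone and none had an unadjusted p under 0.05. Across all 10146 genes tested 0% passed with edgeR, with 16 genes at an unadjusted p under 0.05, and DESeq2 gave 0 calls and 7 such genes. With the replicate block edgeR gave 1 call, not a member, and 605 such genes. All 9 members had an edgeR adjusted p of 1.0. The log2 fold changes of the members ran from -0.10 for Rxra to 0.24 for Pparg, which had 36 to 88 reads per EV library. The intervals were narrow for Ppard (-0.16 to 0.15), Ncor1 (-0.19 to 0.21) and Med1 (-0.17 to 0.21). They were wide for Ppargc1a (-0.77 to 0.76) and Ppargc1b (-0.87 to 0.88) in this fit without pairing. Within replicate numbers, Ppargc1a differed by 0.06, -0.05 and 0.02 and Ppargc1b by 0.33, -0.04 and -0.33 on the log2 scale. With the replicate number as a block the edgeR adjusted p of the members was 0.81 or more.

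Whether the response to pioglitazone differed between the lines was tested as an interaction. None of the 9 members passed, and none had an unadjusted p under 0.05, beside 2.64% of 10482 genes tested (1.38% with a higher and 1.26% with a lower response in PPFP cells). The difference in response was 0.39 for Ppargc1a (95% interval -0.48 to 1.26), 0.60 for Ppargc1b (95% interval -0.41 to 1.60) and 0.21 for Ncor1 (95% interval -0.01 to 0.43) on the log2 scale. With the replicate number as a block within each line, these 3 members passed in edgeR, with adjusted p of 0.0012, 0.014 and 0.0045. In that fit 34.3% of all genes passed.

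The spread between experiments was shared among several members. Same-numbered libraries of a line also varied together over all genes that passed the filter (r = 0.43 to 0.77). The genes given here were picked after their values were seen, and correlations over other pairs of genes were not computed. Within EV cells, replicate 2 was above the group mean by 0.52 for Ppargc1a, 0.56 for Ppargc1b, 0.27 for Ppara and 0.22 for Rxrb on the log2 scale, averaged over both treatments. EV replicate 3 was below it for the same genes, with deviations of -0.49, -0.56, -0.29 and -0.32. In PPFP cells replicate 1 was the low one, with deviations of -0.24, -0.23, -0.23 and -0.21, and replicate 3 was above the mean by 0.16, 0.03, 0.22 and 0.07. After removal of group means, the deviations of Ppargc1a over the 12 libraries correlated with those of Ppara (Pearson's r = 0.93), Ppargc1b (0.90), Rxrb (0.90), Pparg (0.86), Ncor1 (0.82) and Rxra (0.59). The values for Ppard (-0.08) and Med1 (-0.05) were near 0. These points share a replicate number in pairs and the same scaling, so the correlations are given as a description.

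**Figure D4:**
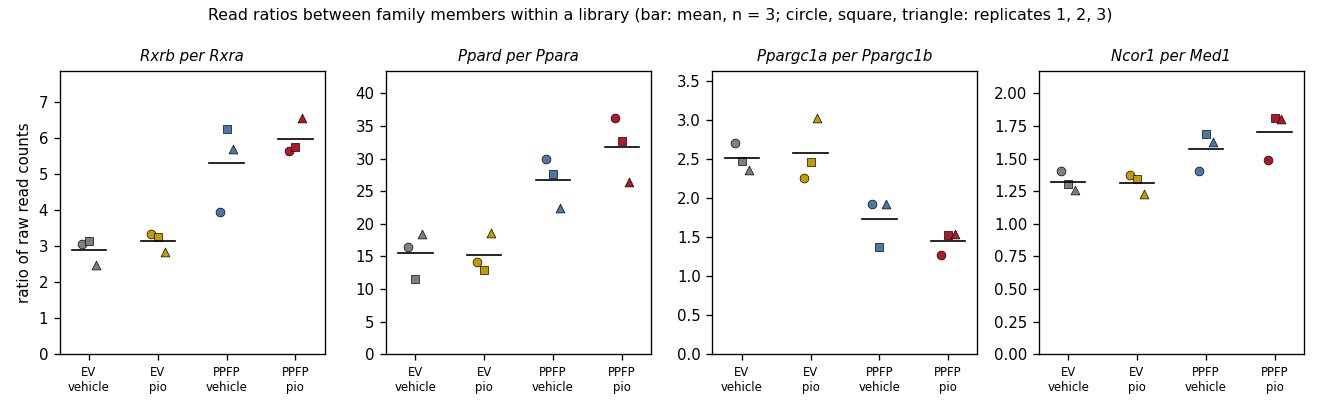
Ratios of raw read counts between related members within each library (linear axis from 0), with the mean of 3 libraries as a bar. Rxrb per Rxra and Ppard per Ppara are higher in all PPFP than in all EV libraries, and Ppargc1a per Ppargc1b is lower.

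Read ratios did not overlap between the lines for Rxrb per Rxra, Ppard per Ppara and Ppargc1a per Ppargc1b, but did for Ncor1 per Med1. These pairs were picked after their values were seen, and the share over other pairs was not computed. Among single genes 56.5% without and 62.9% with pioglitazone did not overlap between the lines, in groups of 3 libraries. Reads of Ppard per read of Ppara were 11.6 to 18.6 in EV libraries and 22.5 to 36.2 in PPFP libraries. Reads of Ppargc1a per read of Ppargc1b were 2.26 to 3.03 in EV libraries and 1.27 to 1.92 in PPFP libraries. Reads of Ncor1 per read of Med1 were 1.23 to 1.41 in EV libraries and 1.41 to 1.81 in PPFP libraries, where the lowest PPFP and the highest EV library overlapped. Read ratios depend on transcript length, so they compare libraries and not the abundance of one gene with another.

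The other genes of the pathway were taken as 5 lists (90 genes, of which 76 have a row). Of 71 tested genes, Rxrg and Esrrb passed the filter through the libraries of a single line, where they had to differ. They are left out of the counts for the 2 comparisons between the lines, but are among the 71 genes of the interaction. Without pioglitazone 29 of the other 69 genes changed (42%, with 17 higher and 12 lower), and with pioglitazone 34 of 69 (49.3%, with 19 higher and 15 lower). With pioglitazone in PPFP cells 9 of 70 changed (12.9%), in EV cells 0 of 70, and in the interaction 1 of 71. These shares are near those of all tested genes given above. With the replicate block 42 of 70 genes passed in PPFP cells, 0 of 70 in EV cells and 26 of 71 in the interaction, beside 51.6%, 0.0099% and 34.3% of all genes tested in those fits.

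Among 11 partner receptors tested in both lines 7 changed between the lines without pioglitazone, with 4 higher and 3 lower (63.6%, beside 45.2% of all tested genes, of which 22% were higher and 23.1% lower). Rxrg, the remaining RXR, passed the filter only through the PPFP libraries and is given as read counts without a test. It had 0, 5 and 5 reads in EV cells and 82, 99 and 64 in PPFP cells with vehicle. With pioglitazone it had 1, 2 and 1 reads in EV cells and 136, 152 and 120 in PPFP cells, which was at least 52.5-fold higher against a floor of 3 counts per library. The thyroid hormone receptor gene Thrb was higher in PPFP cells (log2 fold change 1.49 ± 0.12 SE, edgeR adjusted p = 7.2e-05), as was the retinoic acid receptor gene Rara (0.69 ± 0.08 SE, edgeR adjusted p = 0.00045).

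Of 13 tested coactivators 4 changed between the lines without pioglitazone (30.8%, beside 45.2% of all tested genes). Pprc1, the third gene of the PGC-1 family, was lower (log2 fold change -0.65 ± 0.16 SE, edgeR adjusted p = 0.014), as was Cited2 (-0.32), while the nuclear receptor coactivator Ncoa4 was higher (0.42). Without PPFP replicate 3 the calls of Pprc1 (-0.54, edgeR adjusted p = 0.0501) and Cited2 (-0.30, edgeR adjusted p = 0.053) were lost. Of 10 tested corepressors 6 changed (60%, beside the same 45.2%). Nrip1, a corepressor of several nuclear receptors, was higher (1.25 ± 0.11 SE, edgeR adjusted p = 0.00014), as was Wwtr1 (0.76), which encodes TAZ, a cofactor of both PPARG and PAX8. Sin3a, a scaffold of histone deacetylase complexes, was lower (-0.53).

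Mediator subunits other than Med1 changed in 7 of 25 tested genes (28%, beside 45.2% of all tested genes), with Med30 (0.86) and Med16 (0.62) higher and Med27 (-0.71) lower in PPFP cells. Of 10 factors that work with PGC-1 proteins and were tested in both lines 5 changed (50%). Esrrb, an estrogen-related receptor gene, had 296 to 653 reads in EV cells and 4 to 9 in PPFP cells with vehicle, and since it passed the filter only through the EV libraries it is given without a test. Esrra, the best known PGC-1 partner, was lower in PPFP cells (-0.47 ± 0.09 SE, edgeR adjusted p = 0.0034), and the mitochondrial factor gene Tfb1m was higher (0.67).

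With pioglitazone present, the genes of each list with the smallest adjusted p between the lines, Rxrg and Esrrb apart, were as follows. Thrb (2.02), Rara (0.91), Ncoa4 (0.65), Nrip1 (1.56), Wwtr1 (1.08), Tbl1x (0.49), Med16 (0.59), Med10 (0.43) and Tfb1m (0.77) were higher in PPFP cells. Cited2 (-0.47), Kat2a (-0.33), Med27 (-0.68) and Esrrg (-1.46) were lower. All values are log2 fold changes with an edgeR adjusted p under the threshold. Tbl1x encodes a subunit of the NCOR1 complex, and Kat2a a histone acetyltransferase.

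Pioglitazone in PPFP cells raised Thrb (0.55), Ncoa4 (0.24), Nrip1 (0.38), Wwtr1 (0.26), Esrra (0.19) and Nr1h3 (1.35), which encodes LXR alpha, and lowered Thra (-0.58). By list 5 of 12 partner receptors (41.7%), 1 of 13 coactivators, 2 of 10 corepressors and 1 of 10 PGC-1 partner factors passed. With the replicate block these were 10, 9, 7 and 9. None of the 25 tested Mediator subunits passed, or 7 of 25 with the block. Among all tested genes 14.8% passed, or 51.6% with the block. With the block the 7 genes just named also passed. Of these 7 named genes, Thrb alone passed in all 14 alternative settings, and the other 6 lost their call in 4 to 10 of the 14, among them fits that left out a library. The highest adjusted p over these settings was 0.10 for Nr1h3 and Nrip1, 0.13 for Thra, 0.16 for Wwtr1, 0.20 for Ncoa4 and 0.34 for Esrra.

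**Figure D5:**
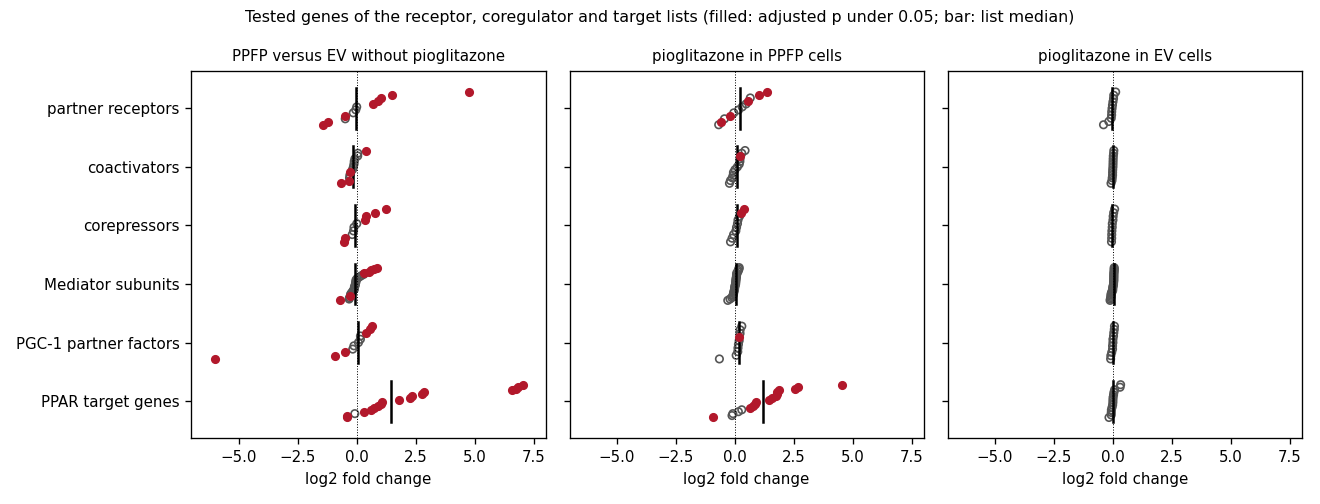
Log2 fold changes (horizontal axis) of all tested genes of 5 coregulator and receptor lists and of PPAR target genes in 3 comparisons, filled where the edgeR adjusted p was under 0.05, with list medians as bars. The points spread widely between the lines, and those for pioglitazone in EV cells run from -0.40 to 0.32. Between the lines Rxrg, Esrrb, Aqp7, Cidec, Plin1 and Ucp3 are drawn and enter the bars. They passed the filter through a single line and had to differ. The PPAR target bar is at 1.45 between the lines and 1.17 for pioglitazone in PPFP cells. Without Aqp7, Cidec, Plin1 and Ucp3 these medians were 0.96 and 0.82.

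Known PPAR target genes were listed as a readout of the receptors. All 24 listed targets have a row, but 6 had too few counts to be tested, among them Fabp4, Cd36, Lpl, Pck1 and Cidea. Aqp7, Cidec, Plin1 and Ucp3 had 0 to 4 reads per EV library with vehicle and passed the filter only through PPFP libraries, where they had to differ, so they are left out of the counts that follow, a choice made after their values were seen. Of the 14 targets that also passed the filter in EV cells, 13 changed between the lines without pioglitazone (11 higher and 2 lower), beside 45.2% of all tested genes. Their median difference was 0.96 on the log2 scale, beside 0.00 over all tested genes. With pioglitazone in PPFP cells 10 of these 14 changed (9 higher and 1 lower), beside 14.8% of all tested genes, and their median was 0.82, beside 0.01 over all tested genes. The strongest by adjusted p were Angptl4 (2.54 ± 0.05 SE, edgeR adjusted p = 1.0e-05), which encodes an inhibitor of lipoprotein lipase, Plin2 (1.89), which coats lipid droplets, and Gpd1 (1.74), a glycerol phosphate enzyme. In EV cells 0 of 14 tested targets changed, and none had an unadjusted p under 0.05.

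The genes whose levels over the 12 libraries were most like those of a member were found among 9629 genes. Pparg was most like Mtus1 and Ankh (Pearson's r = 1.00 for both), Ppard like Mier2 (1.00) and Hmg20b (0.99), and Rxra like Bmyc and Vkorc1 (0.99 for both). Ppara was most like Usp40 and Rit1 (0.97 for both) and Rxrb like Dip2c and Sptbn1 (0.99 for both). Ppargc1a was most like Mical2 and Zfp746 (0.98 for both), Ppargc1b like LOC100362347 (0.96) and Clmn (0.94), Ncor1 like Inpp5b and Slc38a2 (0.98 for both), and Med1 like Pmm2 (0.89) and Heatr1 (0.88). For the members that differ between the lines these values reflect the difference between 6 EV and 6 PPFP libraries.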

How the data were processed

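The authors aligned 50 nt paired-end reads to the rat genome (rn4) with TopHat2 2.0.11 and counted them per gene with HTSeq 0.6.1p1 in its intersection-strict mode. The deposited table holds these raw counts, not normalised, with no rows that name no gene. Strand handling and the gene annotation are not given in the sources used here. In RefSeq GRCr8 the protein-coding genes Cdpf1, Slc39a7 and Pigl overlap Ppara, Rxrb and Ncor1, and reads in shared stretches could count for neither. The deposited binding peaks were not used here, because they carry no gene names.

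Counts were tested in edgeR 4.0.16 (R 4.3.3) by the quasi-likelihood test, with filterByExpr, TMM scaling (factors 0.925 to 1.05) and a fit per pair of groups, and with an interaction fit over 12 libraries. Levels are TMM-scaled CPM. Alternatives were edgeR's exact test, DESeq2 1.42.0, other scaling and filters, a fit of all libraries, a replicate block and leaving out each library. No 2 libraries were identical. P-values of fits without a block measure the spread between independent experiments, and those with the block the spread left after the replicate number is removed. Between the lines they measure repeats of the same 2 cell lines, not the spread between transfected lines. The fitting code was tested on simulated data with independent libraries and fewer changed genes than between the lines here. The replicate block was not simulated, so this checks the code and not the reported calls.

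Deviations from group means correlated between same-numbered libraries within a line, at 0.74, 0.46 and 0.43 in PPFP cells and 0.53, 0.73 and 0.77 in EV cells, so values blocked on that number are given beside the pioglitazone results where it changes a call. The counts of calls and the intervals come from unblocked fits. The study ran all samples of an experiment on the same lanes.

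The members and lists were chosen with earlier results of these data known. Named genes are all members, up to 3 genes per pathway list and comparison with the smallest adjusted p under 0.05, 3 target genes by adjusted p, Pax8, and the 2 genes most like each member in log2 CPM (mean of at least 1 CPM). Genes chosen for the spread between experiments and the read ratios were picked after their values were seen.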

Additional observations from a re-analysis of the deposited data

Results flagged for a closer look

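The response to pioglitazone of Rarb, which encodes retinoic acid receptor beta, differed between the lines by a test of the difference itself, with a larger response in PPFP cells by 1.39 on the log2 scale (SE 0.32, edgeR adjusted p = 0.047). Rarb had 13, 13 and 13 reads with vehicle and 33, 22 and 29 with pioglitazone in PPFP cells, and 35, 42 and 45 with vehicle and 32, 32 and 35 with pioglitazone in EV cells. The call was lost in 12 of 18 alternative settings, among them 11 of the 12 fits that left out a library, with adjusted p up to 0.12. The cause of this difference was not tested.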

How the results depend on the processing

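Over 666 alternative fits of single members, 631 kept their side of the threshold, 12 lost and 23 gained a call, and none of the called values changed sign. In 55 fits a value near 0 that passed in neither fit changed sign. The number of members changed by pioglitazone in PPFP cells, 1 in the fit reported, was 2 with DESeq2, 0 with library size alone, 0 with all 12 libraries in one fit, 4 with the replicate block and 0 to 1 when a library was left out. The number of other pathway genes changed there, 9, was 42 with the replicate block and 1 to 7 when a library was left out. In the interaction, 0 members became 3 with the replicate block within cell line, and 1 pathway gene became 3 with DESeq2, 0 with no filter, 26 with that block and 0 to 1 when a library was left out. Over all genes the block raised the calls for pioglitazone in PPFP cells from 1486 to 5198 and for the interaction from 277 to 3594, and DESeq2 gave 601 for the latter. Between the lines, same-numbered libraries did not vary together (correlations of -0.25, 0.32 and -0.32 with vehicle and of -0.25, 0.24 and -0.38 with pioglitazone). There the block gave 4050 in place of 4635 calls without pioglitazone and 4545 in place of 5425 with it, and Ppargc1b without pioglitazone passed with it (-0.56, adjusted p = 0.048). With library size alone the median gene moved by -0.08 and -0.12 between the lines, and 1884 of 4804 and 2048 of 5591 calls were higher in PPFP cells, in place of 2259 of 4635 and 2708 of 5425. Rxrb with pioglitazone passed on that scale (-0.46, adjusted p = 0.049). Ncor1 without pioglitazone passed with all 12 libraries in one fit (0.20, adjusted p = 0.038), and Ncor1 in PPFP cells lost its call with the exact test (adjusted p = 0.20), library size alone (0.10) and all 12 libraries (0.067). Ppargc1b in PPFP cells passed with the exact test (0.024), DESeq2 (0.025) and without vehicle replicate 2 (0.041). Of 574 such fits of named pathway and target genes, 521 kept and 53 lost their call, and none changed sign. The 521 include the fits of Rxrg and Esrrb between the lines, 13 per gene and comparison. These genes had to differ, so their fits say nothing of robustness. The causes of these changes were not tested. Pparg in EV cells and Rxrg and Rarb rest on under 100 reads in some or all libraries, which limits their precision.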
